A study of Mus musculus with 12 samples.

Results

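Osteoclasts are the multinucleate cells that resorb bone, and they arise from the same M-CSF-dependent precursors that give rise to macrophages in culture. Here 8 genes of that programme were followed in bone marrow-derived macrophages: Nfatc1, Ctsk, Acp5, Dcstamp, Ocstamp, Atp6v0d2, Oscar and Tnfrsf11a. They were taken as a fixed list, which was chosen with earlier results of these data known. Every non-control array probe whose transcript accession belonged to any of them was read. This gave 11 probes for 8 genes, out of 27509 probes naming 20887 genes. All 11 probes were well above background on all 12 arrays, and all 8 genes were among the 13113 genes tested. The arrays, 1-colour Agilent microarrays of total RNA, formed 4 groups of 3: ERRα-/- cells with LPS, ERRα-/- cells with PBS, ERRα+/+ cells with LPS and ERRα+/+ cells with PBS. ERRα-/- cells lack the nuclear receptor ERRα, and LPS, a bacterial cell wall lipid that activates macrophages through TLR4, was given at 100 ng/mL, with PBS as its solvent control. Marrow donors of every group were C57BL6 males, 6 to 8 weeks of age, and all cultures had M-CSF for 5 to 7 days. The labels describe every sample as such macrophages, but the source field of replicates 2 and 3 of each group reads Cell line, unlike that of replicate 1. The labels name no RANKL in the culture, do not give the length of the LPS exposure, and do not say which part of Esrra was deleted or whether replicates came from separate animals or cultures, so p-values measure the spread between these arrays, which may be technical.

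As background, the osteoclast programme starts when RANKL binds its receptor RANK on a myeloid precursor. Adaptor-linked co-receptors such as OSCAR add calcium signals, and together with NF-κB and AP-1 these switch on the transcription factor NFATc1. NFATc1, with MITF and PU.1, then drives genes for cell fusion (Dcstamp, Ocstamp, Atp6v0d2) and for bone resorption (Ctsk, Acp5). ERRα, with its coactivator PGC-1β, is known for driving mitochondrial genes, and osteoclasts are rich in mitochondria. LPS is known to promote osteoclast formation from precursors already committed by RANKL and to hold it back in uncommitted ones.

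Stretches before the transcription start were available from RefSeq (mouse build GRCm38.p6) for 4 of the 8 genes, in 6 windows of 250 bases, since Acp5 has 3 listed starts. The windows of Oscar, Acp5 (the start farthest downstream) and Ctsk are shown because the first pair belong to genes that LPS raised and the Ctsk window to a gene whose LPS response was not called. Capitals mark matches, searched on both strands, to the NFAT core GGAAA. They also mark matches to the MITF E-box, spelled TCANGTG. A match on the opposite strand appears as its reverse complement, and no match of one motif overlapped a match of the other. Oscar lies at chr7:3616158-3616407 on the minus strand, Acp5 at chr9:22130599-22130848 on the minus strand, and Ctsk at chr3:95498960-95499209 on the plus strand, each printed 5′ to 3′ along its gene.
Oscar: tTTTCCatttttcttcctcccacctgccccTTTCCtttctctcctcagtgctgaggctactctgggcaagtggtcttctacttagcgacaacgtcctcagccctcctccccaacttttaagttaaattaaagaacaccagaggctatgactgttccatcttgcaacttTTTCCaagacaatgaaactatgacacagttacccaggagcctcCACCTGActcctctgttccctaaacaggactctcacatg
Acp5: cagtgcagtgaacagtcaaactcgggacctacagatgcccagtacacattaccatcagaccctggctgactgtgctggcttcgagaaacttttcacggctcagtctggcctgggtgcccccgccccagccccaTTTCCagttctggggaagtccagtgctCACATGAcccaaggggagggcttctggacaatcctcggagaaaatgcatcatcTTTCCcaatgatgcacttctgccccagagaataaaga
Ctsk: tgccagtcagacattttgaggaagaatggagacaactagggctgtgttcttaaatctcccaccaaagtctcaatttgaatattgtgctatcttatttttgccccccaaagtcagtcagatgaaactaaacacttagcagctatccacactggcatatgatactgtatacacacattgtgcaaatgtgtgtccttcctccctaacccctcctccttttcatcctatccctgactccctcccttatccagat
Oscar held 3 NFAT cores and 1 E-box, this Acp5 window held 2 NFAT cores and 1 E-box, and the Ctsk window held neither. Of the windows not shown, the other Acp5 starts held 1 NFAT core and 0 E-boxes each, and the Tnfrsf11a window held 0 of both; the Acp5 start shown is thus the one with the most matches. Over all 32851 promoter windows of this length, 55.6% held an NFAT core and 12.2% held the E-box, so a match is common. The AP-1 site TGANTCA (6.75% of windows) and the ERR element TNAAGGTCA (1.14% of windows) were searched in the same way and matched in none of the 6 windows. These matches describe letters within the windows and say nothing about binding.

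Levels are given on a log2 scale relative to each array's 75th percentile of processed signal, which is 0 on that scale. Differences are on the same scale, with ± giving the fit's standard error (SE) and n = 3 arrays per group. Esrra, which encodes ERRα, read 4.40, 3.92 and 3.83 in ERRα-/- LPS cells and 2.48, 0.25 and 0.15 in ERRα-/- PBS cells. It read 5.87, 6.25 and 6.36 in ERRα+/+ LPS cells and 4.54, 4.39 and 4.68 in ERRα+/+ PBS cells. The mean of both treatments was lower in cells lacking ERRα, at a log2 difference of -2.84 (limma, adjusted p = 0.0038). Under PBS the difference was -3.58 (adjusted p = 0.0225, called in 8 of 12 fits that left out 1 array). Under LPS it was -2.11 and was not called (adjusted p = 0.202). Within each treatment the arrays of the genotypes did not overlap, as for 14.2% of all genes under PBS and 12% under LPS. Signal remained on all ERRα-/- arrays. Whether this probe lies within the deleted stretch is not known, and if it does not, it does not check the labels. Well above background on every array were 9 of 9 measured macrophage markers, and also 7 of 7 measured neutrophil markers, so neither count by itself sets the cell type. Replicate 1 of each group lay on slide 1 and replicates 2 and 3 on slide 2, and replicates with the same number moved together. The same limma fit with the replicate number as a block is therefore given wherever it changes a call. Replicate 1 stood apart for several of the 8 genes: in all 4 groups it was above the mean of the other replicates for Dcstamp (by 1.77 to 3.57), Ctsk (by 0.54 to 2.52), Atp6v0d2 (by 0.80 to 1.52) and Ocstamp (by 0.14 to 3.34). Over all genes the median size of that gap was 0.34 to 0.48.

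**Figure D1:**
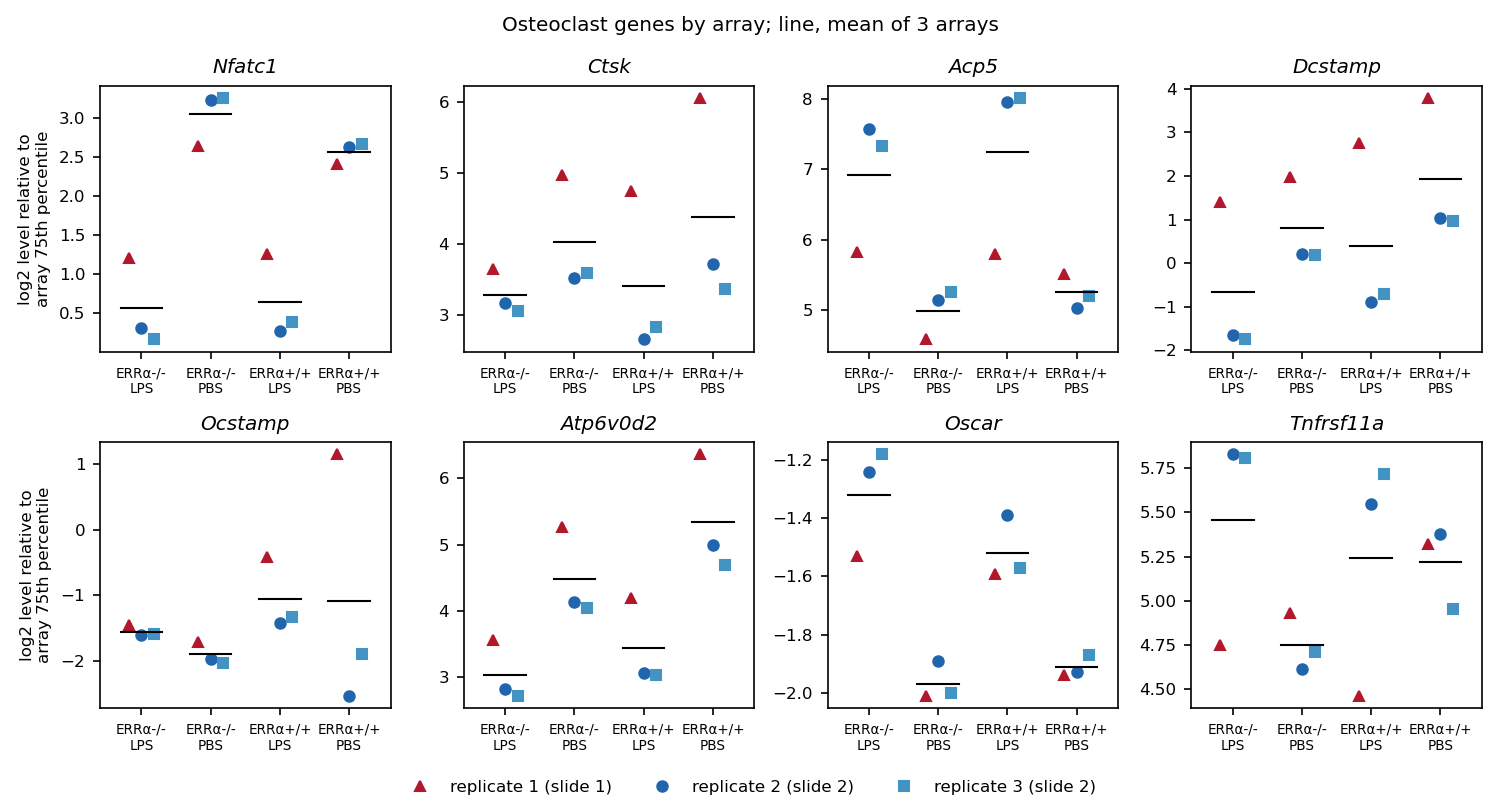
Log2 level (relative to each array's 75th percentile) of the 8 osteoclast genes on each of the 12 arrays, grouped as ERRα-/- LPS, ERRα-/- PBS, ERRα+/+ LPS and ERRα+/+ PBS; each point is 1 array, replicate 1 (slide 1) is drawn apart from replicates 2 and 3, and the bar is the group mean. Nfatc1 and Atp6v0d2 sit lower, and Acp5 and Oscar higher, in LPS than in PBS cells of both genotypes, and replicate 1 is the highest array of its group for Dcstamp in all 4 groups.

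LPS moved these genes in both directions. Of the 8 genes, 4 were called in ERRα-/- cells, namely Acp5 and Oscar, which rose, and Nfatc1 and Atp6v0d2, which fell; the same 4 genes were called, in the same directions, in ERRα+/+ cells. For comparison, 50.4% of all 13113 genes were called in ERRα-/- cells and 45.9% in ERRα+/+ cells, so a count of 4 of 8 is close to the background. The median response of the 8 genes was -0.20 in ERRα-/- cells and -0.47 in ERRα+/+ cells, against medians of 0.05 and 0.02 over all genes. With the replicate block, 5 of the 8 were called in ERRα-/- cells (Dcstamp added) and 6 in ERRα+/+ cells (Dcstamp and Ctsk added), against 63.7% and 60.5% of all genes. On slide 2 alone, with 2 arrays per group, 7 and 8 of the 8 were called, against 73.7% and 72.3% of all genes. Wherever slide 2 alone is given, its p-values rest on the spread within that slide. That spread may be technical and leaves out the difference between slides. Arrays of LPS and PBS cells did not overlap for 5 of the 8 genes in ERRα-/- cells and for 4 in ERRα+/+ cells, against 59.5% and 53.9% of all genes. The summed level of 7 dendritic cell markers, of which Xcr1 was above background on 0 of 12 arrays, was higher with LPS: 6.71 to 23 against 0.947 to 6.17 in ERRα-/- cells and 7.96 to 8.99 against 2.12 to 3.64 in ERRα+/+ cells. With LPS the brightest of the 7 were Ccr7 (mean log2 level 2.69 against -0.43 with PBS in ERRα-/-, 2.33 against 0.48 in ERRα+/+ cells) and Zbtb46 (1.42 against -5.21, 1.35 against -4.9), which weigh most in the sum. Clec9a, Siglech and Xcr1 were also higher. Cd209a (-3.98 against -3.11, -5.12 against -2.8) and Flt3 (-3.12 against -3.01, -3.27 against -3.17) were lower. The part of the summed level in the responses was not tested. These are bulk RNA values, in which fewer cells of a type and less RNA per cell cannot be told apart.

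**Figure D2:**
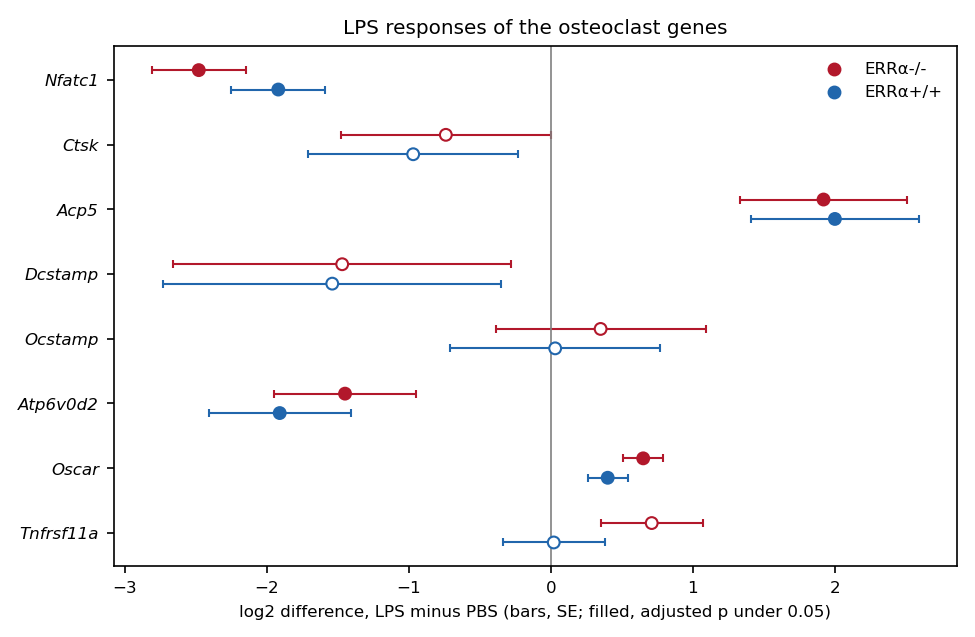
LPS minus PBS log2 difference of each of the 8 genes, with bars for the SE of the limma fit, in ERRα-/- and ERRα+/+ cells; filled points are called at an adjusted p under 0.05. Nfatc1 (-2.48 in ERRα-/- and -1.92 in ERRα+/+ cells) and Atp6v0d2 (-1.45 and -1.91) lie below 0, Acp5 (1.92 and 2.00) and Oscar (0.65 and 0.40) above it, and the open points of the other 4 genes were not called.

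Tnfrsf11a encodes RANK, the receptor through which RANKL commits a precursor. It read 4.75, 5.83 and 5.81 in ERRα-/- LPS cells against 4.93, 4.61 and 4.71 in ERRα-/- PBS cells, a log2 difference of 0.71 ± 0.36 (limma, adjusted p = 0.124). In ERRα+/+ cells it read 4.46, 5.55 and 5.72 with LPS and 5.32, 5.38 and 4.95 with PBS, a difference of 0.02 ± 0.36 (adjusted p = 0.961). LPS and PBS arrays overlapped in both genotypes, and replicate 1 of each LPS group was its lowest array. The value in ERRα-/- cells rested on that array: without ERRα-/- LPS replicate 1 it was 1.07 (adjusted p = 0.0202), and on slide 2 alone it was 1.16 in ERRα-/- cells (adjusted p = 0.000512) and 0.47 in ERRα+/+ cells (adjusted p = 0.0283). Under quantile normalization the difference in ERRα+/+ cells was -0.45 (adjusted p = 0.208), so its sign was not settled. Mean Tnfrsf11a levels (± SD) were 5.46 ± 0.62 in ERRα-/- LPS, 4.75 ± 0.16 in ERRα-/- PBS, 5.24 ± 0.68 in ERRα+/+ LPS and 5.22 ± 0.23 in ERRα+/+ PBS cells. The order, highest first, was ERRα-/- LPS, ERRα+/+ LPS, ERRα+/+ PBS and ERRα-/- PBS. Among these neighbours, only the arrays of ERRα-/- PBS and ERRα+/+ PBS cells did not overlap.

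Oscar encodes an immunoglobulin-like receptor that binds collagen and signals through the adaptor FcRγ, and its window with 3 NFAT cores is printed above. It was dim, at 92.4 to 175 units of processed signal over all 12 arrays. Its levels were -1.53, -1.24 and -1.18 in ERRα-/- LPS cells against -2.01, -1.89 and -2 in ERRα-/- PBS cells, a rise of 0.65 ± 0.14 (limma, adjusted p = 0.00312). In ERRα+/+ cells they were -1.59, -1.39 and -1.57 with LPS against -1.94, -1.93 and -1.87 with PBS, a rise of 0.40 ± 0.14 (adjusted p = 0.037). In neither genotype did LPS arrays overlap PBS arrays. The call in ERRα-/- cells held without any 1 of the 12 arrays (adjusted p at most 0.0175), whereas that in ERRα+/+ cells was lost without any 1 of 8 arrays: replicate 2 of every group, replicate 3 of every group but ERRα-/- LPS, and ERRα+/+ PBS replicate 1 (log2 difference 0.33 to 0.42, adjusted p 0.0524 to 0.136). With normexp background correction it was 0.22 (adjusted p = 0.196). Mean Oscar levels (± SD) were -1.32 ± 0.19 in ERRα-/- LPS, -1.97 ± 0.06 in ERRα-/- PBS, -1.52 ± 0.11 in ERRα+/+ LPS and -1.91 ± 0.04 in ERRα+/+ PBS cells. From high to low the order was ERRα-/- LPS, ERRα+/+ LPS, ERRα+/+ PBS and ERRα-/- PBS, and only the middle pair of neighbours did not overlap.

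Nfatc1, the transcription factor that osteoclast formation depends on, was called in both genotypes. It read 1.20, 0.31 and 0.16 in ERRα-/- LPS cells against 2.64, 3.22 and 3.25 in ERRα-/- PBS cells, and fell by 2.48 ± 0.33 (limma, adjusted p = 0.000201), which is 5.58-fold lower. The ERRα+/+ values were 1.26, 0.27 and 0.39 with LPS against 2.40, 2.62 and 2.66 with PBS, and fell by 1.92 ± 0.33 (adjusted p = 0.00097), which is 3.79-fold lower. Every LPS array was below every PBS array of either genotype. A second Nfatc1 probe was called too: its differences were -1.58 ± 0.18 (ERRα-/-, adjusted p = 9.67e-05) and -1.35 ± 0.18 (ERRα+/+, adjusted p = 0.000264). Both calls of the first probe held without any 1 array, with adjusted p at most 0.00155 in ERRα-/- cells and at most 0.00576 in ERRα+/+ cells. Mean Nfatc1 levels (± SD) were 0.56 ± 0.56 in ERRα-/- LPS, 3.04 ± 0.34 in ERRα-/- PBS, 0.64 ± 0.54 in ERRα+/+ LPS and 2.56 ± 0.14 in ERRα+/+ PBS cells. The order, highest first, was ERRα-/- PBS, ERRα+/+ PBS, ERRα+/+ LPS and ERRα-/- LPS; the arrays of the PBS groups overlapped each other, as did those of the LPS groups.

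The fusion genes came next. Dcstamp encodes DC-STAMP, a transmembrane protein needed for precursors to fuse. It read 1.41, -1.65 and -1.75 in ERRα-/- LPS cells against 1.99, 0.22 and 0.20 in ERRα-/- PBS cells. Its ERRα+/+ levels were 2.77, -0.89 and -0.70 with LPS and 3.79, 1.03 and 0.98 with PBS. Replicate 1 was the highest array of each group, and the groups overlapped. LPS was below PBS in all 3 same-numbered pairs of each genotype, with differences of -0.57, -1.88 and -1.95 in ERRα-/- pairs and of -1.02, -1.91 and -1.68 in ERRα+/+ pairs. At least 29.6% of all genes in ERRα-/- and 27.3% in ERRα+/+ cells had all 3 pairs lower, as their arrays lay wholly lower with LPS. The differences of -1.47 ± 1.19 in ERRα-/- cells and -1.54 ± 1.19 in ERRα+/+ cells did not pass limma's test (adjusted p = 0.33 and 0.315). With the replicate block they did (adjusted p = 0.00417 and 0.00373), and slide 2 alone gave -1.91 and -1.80. Mean Dcstamp levels (± SD) were -0.66 ± 1.80 in ERRα-/- LPS, 0.80 ± 1.02 in ERRα-/- PBS, 0.39 ± 2.06 in ERRα+/+ LPS and 1.93 ± 1.61 in ERRα+/+ PBS cells. From high to low the order was ERRα+/+ PBS, ERRα-/- PBS, ERRα+/+ LPS and ERRα-/- LPS, with every neighbouring pair overlapping.

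Ocstamp encodes OC-STAMP, a related transmembrane protein of the fusion step. It read -1.45, -1.60 and -1.59 in ERRα-/- LPS cells against -1.70, -1.96 and -2.02 in ERRα-/- PBS cells. The ERRα+/+ arrays read -0.41, -1.42 and -1.32 with LPS and 1.14, -2.52 and -1.89 with PBS. ERRα-/- LPS arrays lay above ERRα-/- PBS arrays without overlap, but the difference of 0.35 ± 0.74 was not called (limma, adjusted p = 0.72). In ERRα+/+ cells the difference of 0.03 ± 0.74 (adjusted p = 0.974) rested on PBS replicate 1, the brightest of the 12 arrays for this gene; without it the difference was 1.15 (adjusted p = 0.0134), and on slide 2 alone 0.83 (adjusted p = 0.0086). The value of 1.15 keeps LPS replicate 1 of slide 1 against PBS arrays of slide 2 only. That LPS array lay 0.96 above the mean of the other LPS replicates. On slide 2 the ERRα+/+ signal was low, at 134 and 127 units with LPS and 61.5 and 93.8 with PBS. Mean Ocstamp levels (± SD) were -1.55 ± 0.08 in ERRα-/- LPS, -1.89 ± 0.17 in ERRα-/- PBS, -1.05 ± 0.56 in ERRα+/+ LPS and -1.09 ± 1.96 in ERRα+/+ PBS cells. The order, highest first, was ERRα+/+ LPS, ERRα+/+ PBS, ERRα-/- LPS and ERRα-/- PBS, and only the last pair of neighbours did not overlap.

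Atp6v0d2 encodes the d2 subunit of the vacuolar proton pump, used in fusion and in acidifying the resorption pit. It read 3.56, 2.82 and 2.72 in ERRα-/- LPS cells against 5.26, 4.14 and 4.05 in ERRα-/- PBS cells, and fell by 1.45 ± 0.50 (limma, adjusted p = 0.0335). With ERRα present it read 4.20, 3.07 and 3.04 with LPS against 6.36, 4.99 and 4.69 with PBS, and fell by 1.91 ± 0.50 (adjusted p = 0.0105). LPS and PBS arrays did not overlap in either genotype. A second probe gave differences of -1.81 ± 0.53 and -1.84 ± 0.53 (adjusted p = 0.0161 and 0.0166). The call in ERRα+/+ cells held without any 1 array (adjusted p at most 0.0438); that in ERRα-/- cells was lost without ERRα-/- PBS replicate 1 (-1.06, adjusted p = 0.122), ERRα-/- LPS replicate 2 (-1.35, 0.0958) or ERRα-/- LPS replicate 3 (-1.30, 0.102). It was also lost when dim probes were kept in the fit (adjusted p = 0.0615). Mean Atp6v0d2 levels (± SD) were 3.03 ± 0.46 in ERRα-/- LPS, 4.48 ± 0.68 in ERRα-/- PBS, 3.44 ± 0.66 in ERRα+/+ LPS and 5.34 ± 0.89 in ERRα+/+ PBS cells. From high to low the order was ERRα+/+ PBS, ERRα-/- PBS, ERRα+/+ LPS and ERRα-/- LPS, and each overlapped its neighbour.

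The last pair, Acp5 and Ctsk, encode enzymes of bone resorption. Acp5 encodes tartrate-resistant acid phosphatase (TRAP), the histochemical marker of osteoclasts, which macrophages also make. It read 5.83, 7.57 and 7.33 in ERRα-/- LPS cells against 4.58, 5.14 and 5.25 in ERRα-/- PBS cells, and rose by 1.92 ± 0.59 (limma, adjusted p = 0.0203), which is 3.78-fold. In ERRα+/+ cells it read 5.79, 7.95 and 8.01 with LPS against 5.51, 5.03 and 5.20 with PBS, and rose by 2.00 ± 0.59 (adjusted p = 0.0182), which is 4.01-fold. The arrays did not overlap, yet in ERRα+/+ cells the gap within replicate 1 was 0.28, against 2.92 and 2.81 within replicates 2 and 3. A second probe rose by 2.00 ± 0.61 in both genotypes (adjusted p = 0.0202 and 0.0221). The call in ERRα-/- cells was lost without ERRα-/- PBS replicate 1 (1.71, adjusted p = 0.065), ERRα-/- LPS replicate 2 (1.59, 0.0801) or ERRα-/- LPS replicate 3 (1.71, 0.0707). That in ERRα+/+ cells was lost without replicate 2 or 3 of either ERRα+/+ group (1.62 to 1.98, adjusted p 0.05 to 0.0768). With the replicate block the adjusted p-values were 0.0072 and 0.00648. Mean Acp5 levels (± SD) were 6.91 ± 0.94 in ERRα-/- LPS, 4.99 ± 0.36 in ERRα-/- PBS, 7.25 ± 1.26 in ERRα+/+ LPS and 5.25 ± 0.24 in ERRα+/+ PBS cells. The order, highest first, was ERRα+/+ LPS, ERRα-/- LPS, ERRα+/+ PBS and ERRα-/- PBS, and only the middle neighbours did not overlap.

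Ctsk encodes cathepsin K, the protease that degrades the collagen of bone; its window, printed above, held no NFAT core. It read 3.65, 3.17 and 3.06 in ERRα-/- LPS cells against 4.97, 3.52 and 3.60 in ERRα-/- PBS cells, a difference of -0.74 ± 0.74 (limma, adjusted p = 0.435). In ERRα+/+ cells it read 4.75, 2.66 and 2.84 with LPS and 6.06, 3.72 and 3.37 with PBS, a difference of -0.97 ± 0.74 (adjusted p = 0.308). LPS was below PBS in all 6 same-numbered pairs, while the groups overlapped, with replicate 1 the highest array of each. The share of all genes lower in all 6 LPS pairs was not counted. With the replicate block the adjusted p was 0.104 in ERRα-/- cells and 0.0449 in ERRα+/+ cells; on slide 2 alone the differences were -0.45 (adjusted p = 0.0229) and -0.80 (adjusted p = 0.00199). Mean Ctsk levels (± SD) were 3.29 ± 0.32 in ERRα-/- LPS, 4.03 ± 0.82 in ERRα-/- PBS, 3.42 ± 1.16 in ERRα+/+ LPS and 4.38 ± 1.46 in ERRα+/+ PBS cells. From high to low the order was ERRα+/+ PBS, ERRα-/- PBS, ERRα+/+ LPS and ERRα-/- LPS, and all neighbours overlapped.

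The comparison of genotypes asked whether cells without ERRα express these genes at another level. None of the 8 genes was called under PBS, under LPS or averaged over both treatments, where limma called 0.427%, 0.13% and 1.37% of all 13113 genes. The 95% confidence intervals of the averaged difference still allowed sizeable changes for the fusion genes: -2.96 to 0.78 for Dcstamp, -1.80 to 0.50 for Ocstamp and -1.42 to 0.16 for Atp6v0d2. They were narrower for Oscar (-0.14 to 0.29), Nfatc1 (-0.32 to 0.71) and Tnfrsf11a (-0.69 to 0.44), and lay at -1.23 to 0.63 for Acp5 and -1.40 to 0.92 for Ctsk. The genotype comparisons use the same arrays as the LPS comparisons. At an array level, ERRα-/- and ERRα+/+ did not overlap for 1 of the 8 genes under PBS (Tnfrsf11a, lower in ERRα-/-, -0.47 ± 0.36) and for 1 under LPS (Ocstamp, lower in ERRα-/-, -0.49 ± 0.74), against 14.2% and 12% of all genes.

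Dcstamp and Atp6v0d2 were lower in ERRα-/- cells in all 6 same-numbered pairs, a pattern that 10.2% of all genes showed. For Dcstamp the differences were -1.36, -0.76 and -1.04 under LPS and -1.81, -0.80 and -0.77 under PBS. Averaged over treatments, Dcstamp differed by -1.09 ± 0.84 (limma, adjusted p = 0.84), and with the replicate block the adjusted p was 0.0375. For Atp6v0d2 the differences were -0.64, -0.25 and -0.32 under LPS and -1.09, -0.85 and -0.64 under PBS, with an average of -0.63 ± 0.36 (adjusted p = 0.672). The replicate block gave an adjusted p of 0.0168 for that average and of 0.0359 under PBS, where the difference was -0.86 ± 0.50 (adjusted p = 1 without the block). With that block, 3.81% of all genes were called in the averaged comparison and 1.47% under PBS. A second Atp6v0d2 probe had an averaged difference of -0.62 ± 0.38 (adjusted p = 0.731). On slide 2 alone, with 2 arrays per group, the averaged differences were -0.85 for Dcstamp (adjusted p = 0.00155) and -0.52 for Atp6v0d2 (adjusted p = 0.00955), where 20.4% of all genes were called; Nfatc1 was called there as higher in ERRα-/- cells (0.25, adjusted p = 0.0371). These slide 2 p-values rest on the spread within that slide, which may be technical. Slide 1, with 1 array per group, allows no test. Markers of other marrow cells were read alongside. Of the stromal and osteoblast markers, Col1a1, Col1a2 and Col3a1 were above background on all 12 arrays; the summed linear level (the array's 75th percentile being 1) of all 8 on the array was 2.31 to 3.93 in ERRα-/- LPS, 2.80 to 3.21 in ERRα-/- PBS, 3.46 to 6.39 in ERRα+/+ LPS and 4.18 to 9.33 in ERRα+/+ PBS cells. Col1a2 was the brightest of the 8 and weighs most in this sum. Alpl, a defining osteoblast marker, was above background on 0 of 12 arrays, and Sp7 on 2. Ibsp, above background on 5 arrays, had higher means in ERRα-/- cells: -3.71 against -5.5 under LPS and -4.83 against -5.79 under PBS. The other markers of this list had lower means in ERRα-/- cells under both treatments. All 7 neutrophil markers on the array were above background throughout, and their summed level was 315 to 482 in ERRα-/- LPS, 223 to 275 in ERRα-/- PBS, 260 to 519 in ERRα+/+ LPS and 294 to 423 in ERRα+/+ PBS cells. S100a9 (mean log2 levels 8.09, 7.42, 8.12 and 7.89 in that order) was the brightest and weighs most in this sum. With LPS, the means of S100a8, S100a9 and Camp were higher in both genotypes, and those of Mpo, Elane and Retnlg were lower. Ngp was higher in ERRα-/- and lower in ERRα+/+ cells. The part of either cell type in the lower Dcstamp and Atp6v0d2 values was not tested.

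**Figure D3:**
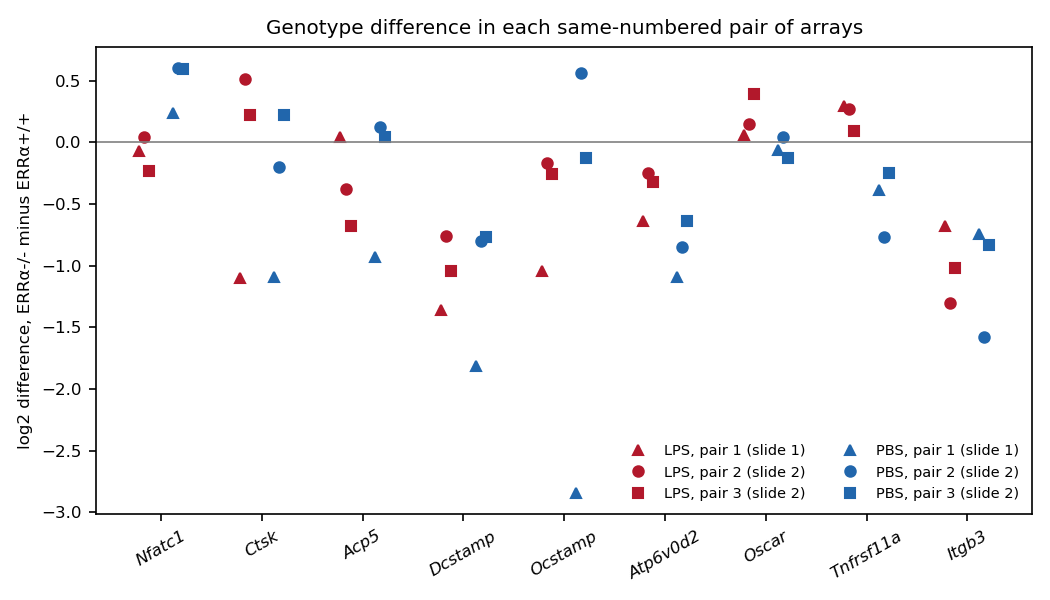
ERRα-/- minus ERRα+/+ log2 difference within each same-numbered pair of arrays, under LPS and under PBS, for the 8 osteoclast genes and Itgb3; each point is 1 pair. All 6 points of Dcstamp, Atp6v0d2 and Itgb3 lie below 0, while those of the other genes fall on both sides.

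Whether the LPS response itself differed between genotypes was tested as the interaction. No gene of the 13113 was called (0%), with 292 at an unadjusted p under 0.05, and the adjusted p was 1 for each of the 8 genes. The largest estimates, as response in ERRα-/- minus response in ERRα+/+ cells, were 0.69 for Tnfrsf11a (95% interval -0.44 to 1.82) and -0.56 for Nfatc1 (-1.58 to 0.46). On slide 2 alone Nfatc1 was called (-0.69, adjusted p = 0.0411), where 4.19% of all genes were. The Nfatc1 response on that slide was thus -3.00 in ERRα-/- and -2.31 in ERRα+/+ cells.

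The wider pathway was read from 6 lists with 77 genes, of which 71 were measured. The lists were chosen with earlier results of these data known, so counts set against all genes only describe these lists. In these lists, rose and fell mean called by limma at an adjusted p under 0.05. In ERRα-/- cells 33 of the 71 rose with LPS and 11 fell, and in ERRα+/+ cells 31 rose and 12 fell, against 25.1% rising and 25.3% falling of all genes in ERRα-/- cells, and 22.2% and 23.7% in ERRα+/+ cells. Among ligands and receptors, Tnfsf11, which encodes RANKL, and Tnfrsf11b, which encodes its decoy osteoprotegerin, were above background on 0 of 12 arrays. Of the 4 measured genes of this list 3 rose in each genotype. Csf1, the gene of M-CSF itself, rose by 4.27 in ERRα-/- and 3.71 in ERRα+/+ cells (limma, adjusted p = 0.000416 in ERRα+/+), Il34, the other ligand of the M-CSF receptor, by 2.18 and 2.72, and the TNF receptor gene Tnfrsf1a by 0.98 and 0.94. The M-CSF receptor gene Csf1r differed by 0.10 and -0.01 and was not called.

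Signal transducers were mixed, with 4 of 12 rising and 2 falling in ERRα-/- cells and 3 rising and 2 falling in ERRα+/+ cells. The kinase genes Src and Syk rose, Src by 3.42 in ERRα-/- and 2.88 in ERRα+/+ cells and Syk by 1.60 and 1.65, while the Tec kinase gene fell by 2.25 and 2.44. Traf6, the adaptor that carries the RANK signal, rose by 0.60 in ERRα-/- cells (adjusted p = 0.00431), and in ERRα+/+ cells its difference was 0.31 (adjusted p = 0.085; 0.49 and 0.0201 with normexp). Of 19 activating transcription factors and cofactors, 14 rose in each genotype, while 3 fell in ERRα-/- and 4 in ERRα+/+ cells, with medians of 1.59 in ERRα-/- and 1.60 in ERRα+/+ cells. The rising genes include Tfec, an MITF-family gene, which rose by 2.75 and 3.21. Fos, the AP-1 partner that osteoclasts require, fell by 2.09 in ERRα-/- and 2.27 in ERRα+/+ cells, and Pparg by 2.14 and 3.08. Nfatc2 and Jun, named after their values were seen, complete the falling genes: Nfatc2, an NFAT-family gene like Nfatc1, fell by 4.55 in ERRα-/- and 4.16 in ERRα+/+ cells (adjusted p = 0.000361 and 0.000665), and the AP-1 gene Jun fell by 1.06 in ERRα+/+ cells (adjusted p = 0.00282), with a difference of -0.54 in ERRα-/- cells (adjusted p = 0.0594).

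Of 12 genes known to restrain osteoclast formation, 6 rose and 2 fell in ERRα-/- cells, and 3 rose and 1 fell in ERRα+/+ cells. Without ERRα-/- PBS replicate 1, or ERRα-/- LPS replicate 2 or 3, only 3 rose in ERRα-/- cells. With the replicate block 5 of 12 rose in ERRα+/+ cells, where 30.2% of all genes rose. Tnfaip3, which encodes the NF-κB inhibitor A20, rose by 4.47 in ERRα-/- and 4.31 in ERRα+/+ cells. Ifnb1, whose product interferon beta restrains osteoclast precursors, was well above background on all 6 LPS arrays and on none of the 6 PBS arrays, and was at least 34.1-fold higher with LPS in ERRα-/- and at least 23.4-fold higher in ERRα+/+ cells. These bounds set the LPS mean against the lowest level of a well-measured probe on each PBS array. Irf8, which encodes a repressor of NFATc1, differed by 0.30 in ERRα-/- and -0.67 in ERRα+/+ cells (adjusted p = 0.407 and 0.0768); quantile normalization brought the ERRα+/+ value to -1.16 (adjusted p = 0.00156).

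Of 9 fusion and adhesion genes, 2 rose and 1 fell in ERRα-/- cells, and 3 rose and 2 fell in ERRα+/+ cells. Cd47, a surface ligand with a part in macrophage fusion, rose by 1.33 in ERRα-/- and 1.37 in ERRα+/+ cells, and the metalloproteinase gene Adam8 fell by 1.06 and 1.03. Adam12 differed by 0.34 in ERRα-/- cells (adjusted p = 0.113) and rose by 0.81 in ERRα+/+ cells (adjusted p = 0.00283). Among resorption genes, 4 of 15 rose and 3 fell in ERRα-/- cells, and 5 rose and 3 fell in ERRα+/+ cells. With the replicate block 5 of 15 fell in each genotype, where 31.2% of all genes fell in ERRα-/- and 30.3% in ERRα+/+ cells. Without ERRα+/+ PBS replicate 1, 7 rose in ERRα-/- cells, and without ERRα+/+ LPS replicate 1, 5 fell in ERRα+/+ cells. The falling counts of the signalling, restraining and fusion lists, at 1 or 2 genes, moved by at most 1 gene when any 1 array was left out. Mmp14, a membrane metalloproteinase, rose by 5.33 in ERRα-/- and 5.17 in ERRα+/+ cells, Snx10, a sorting protein of vesicles, by 3.00 and 2.87, while Rab3d fell by 0.81 and 0.98. Mmp9, the gelatinase of osteoclasts, rose by 2.12 in ERRα+/+ cells (adjusted p = 0.0267; 0.0934 without ERRα+/+ PBS replicate 1 and 0.0796 without ERRα+/+ LPS replicate 1), and its difference in ERRα-/- cells was 1.72 (adjusted p = 0.0571). Atp6v0d1, the widely expressed counterpart of Atp6v0d2, differed by 0.21 in ERRα-/- and 0.11 in ERRα+/+ cells and was not called. The calcitonin receptor gene Calcr, a marker of mature osteoclasts, was above background on 1 of 12 arrays.

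**Figure D4:**
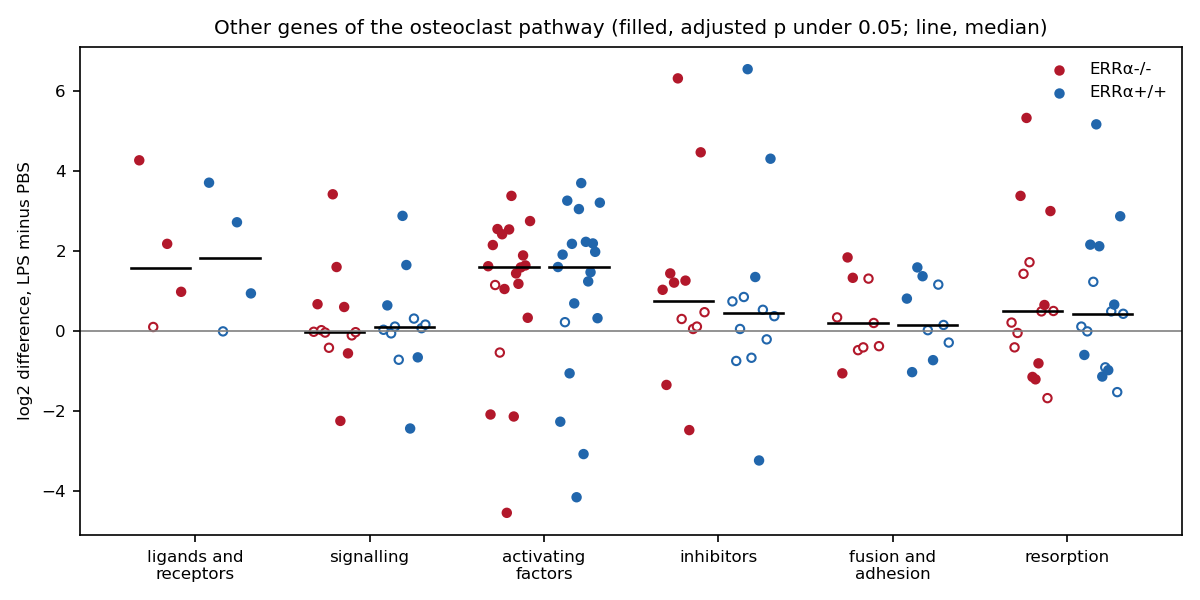
LPS minus PBS log2 difference of the 71 measured pathway genes in 6 lists, in ERRα-/- and ERRα+/+ cells; each point is 1 gene, filled where called at an adjusted p under 0.05, and the bar is the list's median. The medians of the activating factors are 1.59 in ERRα-/- and 1.60 in ERRα+/+ cells, and every list but the ligands and receptors has called genes on both sides of 0.

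Between genotypes, averaged over treatments, 2 of the 71 pathway genes were called, against 1.37% of all genes. Itgb3 encodes the beta 3 chain of the vitronectin receptor, by which osteoclasts attach to bone. It read 3.41, 3.13 and 3.13 in ERRα-/- LPS cells against 4.09, 4.42 and 4.15 in ERRα+/+ LPS cells, and 3.45, 2.80 and 2.80 in ERRα-/- PBS cells against 4.18, 4.39 and 3.63 in ERRα+/+ PBS cells. Every ERRα-/- array was below every ERRα+/+ array, and the averaged log2 level differed by -1.02 (limma, adjusted p = 0.0157). The call ended without ERRα-/- LPS replicate 3 (adjusted p = 0.0501), ERRα-/- PBS replicate 2 (0.053), ERRα-/- PBS replicate 3 (0.0553) or ERRα+/+ LPS replicate 2 (0.053). A second Itgb3 probe gave -0.36 ± 0.35 and was not called (adjusted p = 0.902). Ifnb1 was higher in ERRα-/- cells by 0.87 (adjusted p = 0.0249), but its PBS arrays were below background, and under normexp the value was 0.29 (adjusted p = 0.63); the call was kept in 4 of the 12 fits that left out 1 array.

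The genes whose levels ran most like each osteoclast gene over the 12 arrays were found by Pearson's r, as a description over arrays that share treatment and slide. Nfatc1 was most like Eif4ebp2 (r = 0.996), Fbxw4 (0.995) and 9930012K11Rik (0.992), among 1805 genes with r over 0.9. Acp5 was nearest to Arl14ep (0.988), Ubxn2a (0.988) and Siah1a (0.982), with 1107 genes over 0.9. For Oscar, Zc3h7a (0.975), Prrc2c (0.975) and Tiparp (0.974) came first, with 1379 genes over 0.9. These 3 osteoclast genes thus shared their pattern with many genes. How many of those were called for LPS was not counted. Atp6v0d2 was nearest to Cmbl (0.990), Egr2 (0.987) and Emc8 (0.984), with 397 genes over 0.9, and Dcstamp to Thop1 (0.982), Stac2 (0.981) and Creg1 (0.980), with 243. Ctsk was nearest to Spsb4 (0.977), Bdh2 (0.973) and Cdkl2 (0.972), with 96. Tnfrsf11a had 15 genes over 0.9, led by Synj2 (0.947), Noct (0.946) and Naa20 (0.945), and Ocstamp had 1, Dnajb4 (0.910), followed by Jsrp1 (0.896) and Mmp12 (0.883).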

How the data were processed

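Total RNA of 12 samples was measured on 1-colour Agilent arrays. The authors deposited the processed intensity of each spot, which Feature Extraction 11.5.1.1 had background-subtracted and detrended, per the file headers (9.3.2.1 in the submitters' processing notes). A smaller format is labelled for replicate 1, yet all files held 62976 spots of 1 design. Flags for spots above background, saturated or non-uniform came from the same deposited files. Control spots were removed and spots of a probe averaged. Log2 intensity minus the array's 75th percentile was tested. Probes were named by transcript accession through RefSeq gene tables (build GRCm38.p6); 28172 probes stayed unnamed. Probes well above background on all 3 arrays of a group were kept, and the probe with the highest mean represented its gene (13113 genes).

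limma 3.58.1 in R 4.3.3 (with data.table, version 1.17.8) fitted 1 mean per group over all 12 arrays, with Benjamini-Hochberg adjustment over all genes and calls at an adjusted p under 0.05. The fit was run on simulated data with independent noise and no slide or replicate effect, so that run does not show how the fit handles such effects. The share of probes well above background was 45.3% to 56.7%, the signal at the 75th percentile was 288.8 to 609.8, and 0 spots were saturated. Precision is limited by the number of arrays. The numbers of the replicates were taken to pair the samples, since the deviations of same-numbered arrays from their group means correlated at 0.144 to 0.783 over genes in all 18 pairs. Same-numbered arrays also share a slide, so these correlations do not by themselves show that samples were paired. Replicate 2 of ERRα-/- LPS correlated better with another number than with its own among ERRα-/- PBS arrays (own, 0.203). So did replicate 2 of ERRα-/- PBS among ERRα+/+ PBS arrays (own, 0.44). Alternatives were normexp (offset 50), quantile normalization, other filters, slide or replicate blocks, slide 2 alone, other probe rules, the authors' value table and leaving out each array.

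The 8 genes, the 6 pathway lists and the marker lists were chosen with earlier results of these data known. Named pathway genes, of which 1 is not reported here, were a fixed set (Esrra, Tnfsf11, Tnfrsf11b, Csf1r, Traf6, Fos, Irf8, Itgb3, Mmp9, Calcr and Atp6v0d1), the 3 per list with the lowest adjusted p for LPS in ERRα+/+ cells, up to 3 per list called between genotypes, and the 3 genes most correlated with each of the 8. RefSeq promoter windows were searched for motifs on both strands.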

Additional observations from a re-analysis of the deposited data

How the results depend on the processing

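Over 22 alternative settings, 1056 values of the 8 osteoclast genes were recomputed: 959 kept their direction and their side of the threshold, 30 passed it newly, 21 no longer passed it, 46 changed sign without being called in either, and 0 called values reversed. The authors' deposited value table equalled the fitted values at all 62976 spots of every array. It could therefore move none, and its values are among the 959. Of all genes, slide 2 alone called 9477 for LPS in ERRα+/+ cells. Under PBS, the genotype calls (56) became 37 with normexp, 5 with no filter, 278 with the slide block, 193 with the replicate block and 1248 on slide 2 alone. Under LPS, 17 became 6 with no filter, 211 with the slide block, 132 with the replicate block and 2215 on slide 2 alone. Averaged over treatments, 179 became 113 with normexp, 92 with no filter, 648 with the slide block, 499 with the replicate block and 2670 on slide 2 alone. The interaction called 1 gene with normexp and 550 on slide 2 alone, against 0.

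Among the 8 genes, slide 2 alone called 8 for LPS in ERRα+/+ cells and 7 in ERRα-/- cells, against 72.3% and 73.7% of all genes. Between genotypes it called 3 under PBS (9.52% of all genes), 2 under LPS (16.9%) and 3 averaged (20.4%), and 1 in the interaction (4.19%). The slide block and the replicate block each called 1 between genotypes under PBS (Atp6v0d2) and 2 averaged (Dcstamp and Atp6v0d2). Of all genes, the slide block called 2.12% under PBS and 4.94% averaged, and the replicate block 1.47% and 3.81%. Leaving out 1 array at a time, the 8 genes gave 2 to 5 LPS calls in ERRα-/- cells and 2 to 4 in ERRα+/+ cells, and 0 between genotypes; all genes gave 3 to 81 genotype calls under PBS, 3 to 42 under LPS and 84 to 263 averaged. The causes were not tested. Under quantile normalization the median LPS response over the genes tested was -0.15 (ERRα-/-) and -0.14 (ERRα+/+), against 0.05 and 0.02 otherwise. Low signal over background limits Oscar and Ocstamp, and 3 arrays per group on 2 slides limit every test.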
